A study of Rattus norvegicus with 59 samples.

Results

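The change that followed a single cadmium (Cd) injection between day 3 and day 7 was examined in rat liver, as the difference between exposed and control livers on day 7 minus the same difference on day 3. It is called the late change here, and it is written on the log2 scale, so that a value below 0 means that the exposed-to-control ratio was lower on day 7 than on day 3. The comparison uses 20 of the 59 arrays of the series, all from Cd experiments and chosen by dose and day alone. The 4 groups were Cd 1.25 mg/kg Day 3, Cd Control Day 3, Cd 1.25 mg/kg Day 7 and Cd Control Day 7, with 5 livers in each and 1 array a liver. All animals were male Sprague-Dawley rats of 250 to 300 g. Exposed rats received 1 intraperitoneal injection of cadmium chloride and controls 1 of sterile saline, so every liver is that of an injected animal. Each rat gave a liver on 1 day only, and the days are therefore compared between animals. RNA came from whole liver, where fewer cells of a type and less RNA per cell cannot be told apart. The comparison asks which of the gene responses seen on day 3 had gone, lasted or begun by day 7.

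Cadmium is taken up by hepatocytes and bound by metallothioneins, small cysteine-rich proteins whose genes are induced by metals through the zinc-sensing factor MTF1. Injured liver recruits neutrophils and monocytes and makes acute phase proteins. Hepatocytes that have left quiescence copy their DNA with the MCM helicase in S phase and then pass through G2 and mitosis, where CDK1 and cyclin B act. Many G2/M genes share short promoter elements, the CHR and the CCAAT box, which are bound by the DREAM/MuvB complex and by NF-Y.

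The G2/M finding described further on concerns genes that carry these elements, and the start-site windows of 3 of them are therefore shown: Mki67 encodes the proliferation antigen Ki-67, Cdk1 the mitotic kinase, and Tacc3 a spindle protein. The fourth window, of Parp14, a gene that interferon induces, is shown beside them. Each holds 250 bases before and 50 after the RefSeq transcript start on the rat build GRCr8, written 5′ to 3′ on the gene's strand. Capitals mark CHR matches (TTTGAA or TTTAAA) and CCAAT boxes in the first 3 windows, and in the last an interferon-type element (GAAA, any 2 bases, GAAA), on either strand. In Mki67 a CHR and a CCAAT match overlap in part. The Parp14 window also holds a CCAAT box, left in lower case because only the interferon-type element was marked there. The windows are chr1:199952544-199952843, minus strand, for Mki67, chr20:19265043-19265342, plus strand, for Cdk1, chr14:81289649-81289948, minus strand, for Tacc3, and chr11:78407884-78408183, plus strand, for Parp14.
Mki67: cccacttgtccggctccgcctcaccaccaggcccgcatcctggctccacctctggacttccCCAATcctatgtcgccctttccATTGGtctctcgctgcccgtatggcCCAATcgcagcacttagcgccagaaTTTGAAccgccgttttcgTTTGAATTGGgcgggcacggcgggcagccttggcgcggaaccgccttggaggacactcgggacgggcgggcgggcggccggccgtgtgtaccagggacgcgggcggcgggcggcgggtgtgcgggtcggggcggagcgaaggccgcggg
Cdk1: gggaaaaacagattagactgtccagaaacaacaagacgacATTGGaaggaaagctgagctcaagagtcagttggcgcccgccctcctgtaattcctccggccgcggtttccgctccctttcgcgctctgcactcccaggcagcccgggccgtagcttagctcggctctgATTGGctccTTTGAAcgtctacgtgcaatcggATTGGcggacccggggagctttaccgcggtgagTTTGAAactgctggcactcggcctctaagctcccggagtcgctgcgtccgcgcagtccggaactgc
Tacc3: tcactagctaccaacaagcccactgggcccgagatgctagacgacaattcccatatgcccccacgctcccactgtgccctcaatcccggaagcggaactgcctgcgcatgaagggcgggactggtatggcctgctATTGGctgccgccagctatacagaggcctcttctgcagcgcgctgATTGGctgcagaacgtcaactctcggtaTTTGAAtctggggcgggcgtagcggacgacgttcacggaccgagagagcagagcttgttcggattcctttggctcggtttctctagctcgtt
Parp14: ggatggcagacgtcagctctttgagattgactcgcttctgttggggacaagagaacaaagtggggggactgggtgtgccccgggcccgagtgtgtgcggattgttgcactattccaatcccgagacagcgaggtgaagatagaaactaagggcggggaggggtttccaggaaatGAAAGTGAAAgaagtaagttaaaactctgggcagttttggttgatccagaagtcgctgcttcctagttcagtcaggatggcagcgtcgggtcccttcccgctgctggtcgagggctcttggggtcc

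Among 39 tested G2/M genes, 35 had a window in the table, and 31 of these (88.6%) held a CHR match against 9455 of all 33469 windows (28.2%). A CCAAT box stood in 29 of the 35 (82.9%) against 12549 of all windows (37.5%), and 26 of the 35 (74.3%) held both elements against 3787 of all windows (11.3%). Of the 28 DNA synthesis genes with a window, 4 (14.3%) held a CHR match, 16 (57.1%) a CCAAT box and 1 (3.57%) both. The interferon-type element was matched in 16 of 26 windows of interferon-stimulated genes (61.5%) and in 1312 of all windows (3.92%). These matches describe letters only and are no evidence that a factor was bound.

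The livers carried the marks of their tissue. Alb, which encodes albumin, stood between 14.84 and 14.89 on the log2 scale in the 20 livers and Hnf4a, a hepatocyte transcription factor, between 11.72 and 12.19, while Ins1 (insulin) stood between 5.37 and 5.94 and the T cell marker Cd3e between 4.25 and 4.74. The array medians lay between 5.38 and 5.43. The mean of 10 hepatocyte markers lay between 13.73 and 13.88 in the 20 livers.

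In each exposed group, 1 liver stood apart, and both are set out before the results because they enter them. On day 3, exposed liver 5 had Lcn2 at 5.12, inside the control range of 4.64 to 7.06, while the other 4 exposed livers had it between 12.95 and 13.64. Over the 185 probe sets that rose on day 3, the median distance to the control mean was 0.24 in that liver against 0.59 to 1.00 in the other exposed livers and -0.09 to 0.13 in the control livers. The same liver was with the other exposed livers in the replication gene Mcm6, at 6.66 against 6.56 to 7.00. On day 7, exposed liver 2 had Lcn2 at 12.53 while the other 4 had it between 5.32 and 6.71, and its mean over the G2/M genes, 4.85, was the lowest of the 20 livers. Its median distance over the same probe sets was 0.47, against 0.12 to 0.34 in the other exposed livers of day 7. Both animals were kept, and results were computed again without both. These livers were set apart by their values in such genes. Shifts without both in Lcn2, Orm1, the injury, acute phase and neutrophil lists or the G2/M genes are thus partly fixed by that choice. The labels of both livers were kept. Whether the labels of these 2 livers were exchanged or these animals responded unlike the others of their groups was not tested, so the group values of both days hold this doubt.

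No single probe set had a late change at an adjusted p of 0.05 or less in limma: 0 of 15521, or 0%, with a smallest adjusted p of 0.333. Over the 72 genes named with values the adjusted p of the late change ran from 0.333 to 0.999. A plain linear model called 0 as well. At an unadjusted p of 0.05 or less, 756 probe sets had a late change, 227 higher and 529 lower, and 41 of these (0.264% of those tested) were also at least 1.8-fold, 14 higher and 27 lower. The median late change over all probe sets was -0.03 and the median standard error 0.14, against 0.10 for a same-day difference. The split by direction depended on scaling and filter. When the arrays were quantile normalized again it became 418 higher and 324 lower, and with no filter on low signal 1017 higher and 754 lower of 31042. Without both livers that stand apart, 2 probe sets were called, Orm1 and St3gal5, with a smallest adjusted p of 0.0371, and 75 passed the unadjusted p with the fold. Day 3 exposed liver 5 lay apart in both genes, so leaving it out partly fixes these calls.

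The parts of the late change differed in size. On day 3, 210 probe sets passed the adjusted p in limma, 185 higher and 25 lower in exposed livers, and on day 7, 4 were called, 2 in each direction. Between the 2 days the controls alone had 0 called probe sets in limma, with 708 at an unadjusted p of 0.05 or less, and exposed livers alone had 0 called, with 1636 at that p. A plain linear model called 0 for both. With both livers that stand apart left out, the exposed livers alone had 62 called, 59 of them lower on day 7. Leaving out 1 liver at a time gave 21 to 393 calls on day 3. The count was 393 without exposed liver 5, 21 without exposed liver 3, 29 without exposed liver 4 and 64 without exposed liver 1, and it was 57, 61 and 63 without control liver 3, 4 or 5 of that day. Dropping day 7 exposed liver 5 gave 18 day 7 calls, against 0 or 1 without any other exposed liver or control liver 1, 2, 4 or 5 of that day, and 3 or 4 without the rest. Between the exposed groups it gave 29 without day 3 exposed liver 5, 3 without day 7 exposed liver 4 and 0 without any of the others. The count past the unadjusted p with 1.8-fold for the late change ran from 32 to 73, with 73 without day 3 exposed liver 5 and 67 without day 7 exposed liver 5.

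Most probe sets called on day 3 lay on the same side of control on day 7. For the 185 probe sets that rose on day 3, the median difference from controls was 0.70 on day 3 and 0.28 on day 7, and all 185 had the smaller difference on day 7. On day 7, 171 of them (92.4%) were still above control, against 41.2% of all tested probe sets, and 62 (33.5%) had an unadjusted p of 0.05 or less in that direction, against a background of 3.32%. The day 7 values come from other livers than those behind the day 3 calls, whereas the smaller size on day 7 is partly fixed by choosing on day 3. Of the 25 that fell on day 3, the median went from -0.43 to -0.19. On day 7, 21 of them (84%) were still below control, against 58.8% of all tested probe sets. In that direction 9 (36%) had an unadjusted p of 0.05 or less, against 4.89%. Without both livers that stand apart, 389 probe sets rose on day 3, with a median of 0.64 on that day and 0.15 on day 7, and 340 were above control on day 7, against 43.8% of all tested. Of the 389, 71 (18.2%) had an unadjusted p of 0.05 or less in that direction on day 7, against 1.86% of all tested, and 0 were called.

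**Figure D1:**
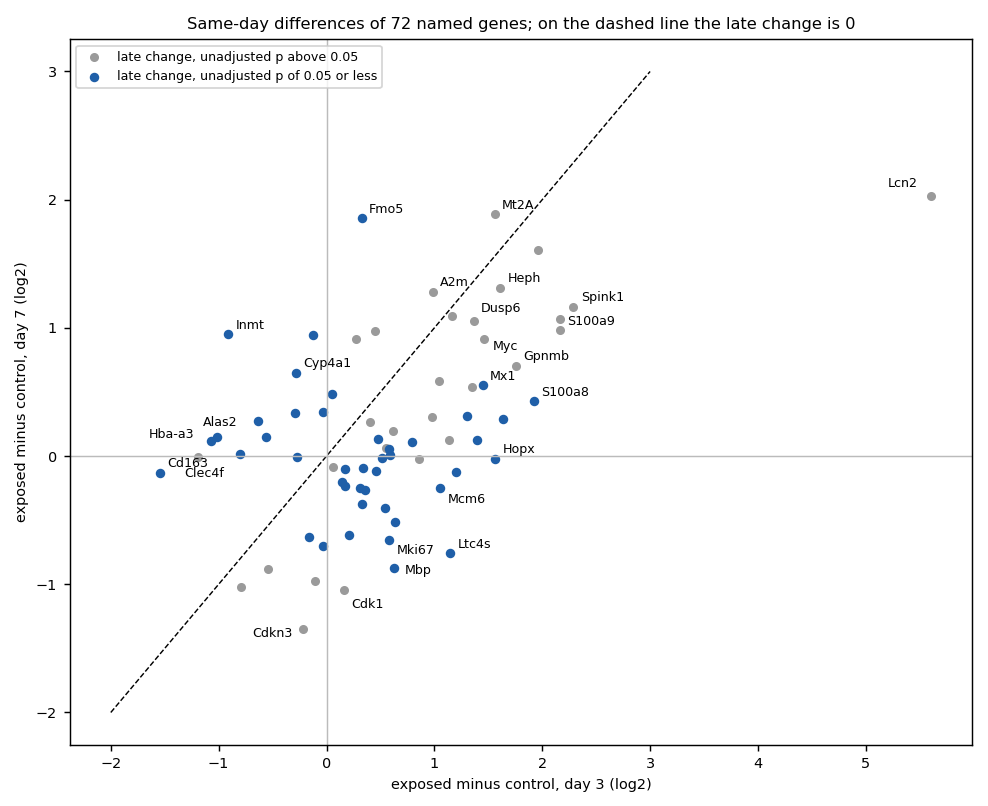
Difference between exposed and control livers on day 3 (x axis, log2) and on day 7 (y axis, log2) for the 72 genes named with values. Each point is 1 gene. Points under the dashed line have a late change below 0, and blue points have an unadjusted p of 0.05 or less for it. Lcn2 lies farthest right, at 5.61 on day 3 and 2.03 on day 7, while Inmt and Fmo5 lie above the line.

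Among the 27 probe sets with a lower late change at an unadjusted p of 0.05 or less and 1.8-fold, 25 had been above control on day 3 and 11 of these were called then. On day 7, 18 of the 27 were below control, against 58.8% of all tested probe sets. Among the 14 with a higher late change, 11 had been below control on day 3, none of them called. On day 7, 13 of the 14 were above control, against 41.2% of all tested probe sets. The late change is the day 7 difference minus the day 3 difference, so choosing on it largely fixes these signs, and they are given as a description. The late changes ran from -0.86 to -1.91 in the lower group and from 0.86 to 1.86 in the higher. Of the 72 genes given values here, 43 had a late change at an unadjusted p of 0.05 or less. The 29 others were Mt2A, Lcn2, Spink1, S100a9, Cxcl1, Cxcl9, Nupr1, Hmox1, Nqo1, Myc, Ccnd1, Cdk1, Ccnb1, Cdkn3, Mx2, Lum, Heph, RT1-Bb, RT1-Da, Asns, Gpnmb, A2m, Orm1, Lgals3, Clec4f, Mmp12, Col4a1, Dusp6 and Tor1b. Each value after ± is a standard error from the limma fit.

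Injury and acute phase genes carried some of the largest day 3 differences. Lcn2 encodes lipocalin-2, an iron-scavenging protein of injured liver. In control livers of day 3 its signal was 7.04, 6.15, 4.64, 7.06 and 5.01, and in exposed livers 13.12, 12.95, 13.11, 13.64 and 5.12. On day 7 the controls were at 4.64, 4.21, 4.75, 5.19 and 6.93 and the exposed livers at 5.8, 12.53, 5.50, 5.32 and 6.71. On day 3, 4 of 5 exposed livers were above every control, and on day 7 only 1 was. Lcn2 rose on day 3 by 5.61 (adjusted p = 0.0377) and its late change was -3.58 ± 1.96 (adjusted p = 0.996). With both livers that stand apart left out the late change was -6.54 (adjusted p = 0.0568), a size partly fixed because this gene set them apart.

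The list of injury and stress markers had 17 tested members, of which 1 (5.88%) had a lower late change at an unadjusted p of 0.05 or less and 0 a higher one, against 3.72% and 1.24% of all 9391 genes. Their median late change was -0.59, beside -0.04 over all genes, from a day 3 median of 0.68 to a day 7 median of 0.32. On day 3, 5 of the 17 rose at the adjusted p, against 1.47% of all genes. Without both livers that stand apart 8 of 17 were lower in the late change, against 473 of all 9391 genes. Leaving out 1 liver at a time gave 0 to 6, with 6 without day 3 exposed liver 5 and 5 without day 7 exposed liver 2. The list mean on day 3 was 7.42 to 7.98 in control livers and 7.73 to 9.60 in exposed livers, and on day 7 it was 7.45 to 7.98 and 7.71 to 8.89. Some exposed livers thus overlapped the controls on both days.

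Other injury genes had late changes that did not pass the unadjusted p. Gpnmb, a glycoprotein of lipid-laden macrophages, rose on day 3 by 1.76 (adjusted p = 0.0343) and had a late change of -1.05 ± 0.60. Lgals3, which encodes galectin-3, rose by 1.35 (adjusted p = 0.0171) and had a late change of -0.81 ± 0.40. Spink1, a secreted trypsin inhibitor, was 2.29 above control on day 3 (adjusted p = 0.0951) and 1.17 on day 7, for a late change of -1.12 ± 0.95. Heme oxygenase Hmox1 had a late change of -0.42 ± 0.43, and the stress gene Nupr1 one of 0.64 ± 0.62, the opposite sign.

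Acute phase proteins had a median late change near 0. Of 23 tested members, 0 had a late change at an unadjusted p of 0.05 or less in either direction, with a median of -0.02. On day 3, 3 of the 23 rose at the adjusted p, against 1.47% of all genes. Orm1, the acute phase glycoprotein orosomucoid, stood at 12.98, 12.67, 12.48, 12.61 and 12.85 in day 3 controls and at 13.78, 13.77, 13.94, 14.09 and 12.91 in day 3 exposed livers. On day 7 its controls were at 12.87, 13.11, 12.78, 12.40 and 12.38 and the exposed livers at 12.80, 14.27, 12.74, 12.69 and 12.56. It was thus high in 4 of 5 exposed livers on day 3 and in 1 of 5 on day 7, and these are the same 2 livers that stood apart in Lcn2. Its late change was -0.68 ± 0.34 (adjusted p = 0.996) with all livers. In the late change without both, Orm1 fell by 1.19 (adjusted p = 0.0371). That value is partly fixed by leaving out livers that stood apart in this gene. A2m, the protease inhibitor alpha-2-macroglobulin, had a late change of 0.29 ± 0.96 with all livers and -0.89 without both, so its direction depended on them. Without both, 8 of the 23 members were lower in the late change, against 473 of all 9391 genes.

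The metal-binding genes had no common direction. Of 15 tested metallothioneins and zinc transporters, 0 had a late change at an unadjusted p of 0.05 or less and 7 were negative, with a median of 0.00. Mt2A, a metallothionein, stood at 9.09, 8.06, 7.6, 8.13 and 9.98 in day 3 controls and at 11.22, 10.59, 9.87, 11.27 and 7.72 in day 3 exposed livers. The day 7 signals were 8.33, 8.56, 7.79, 7.73 and 8.48 in controls and 10.43, 13.10, 9.43, 9.0 and 8.38 in exposed livers. In both exposed groups most livers were above every control, 3 of 5 on day 3 and 4 of 5 on day 7. The difference was 1.56 on day 3 (adjusted p = 0.343) and 1.89 on day 7 (adjusted p = 0.502), for a late change of 0.33 ± 0.97 that became -1.03 without both livers that stand apart.

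NRF2 targets, genes of the antioxidant response, had 2 of 23 tested members lower in the late change (8.70%), against 3.72% of all genes. In the other direction 0 were higher, against 1.24%, and the median was -0.13. On day 7, 5 of the 23 lay below control at an unadjusted p of 0.05 or less, against 4.9% of all genes. Srxn1, which encodes sulfiredoxin, was not above control on day 3 but lay below it on day 7. Its day 7 signals were 7.89, 8.56, 7.91, 7.67 and 8.56 in controls and 7.38, 7.04, 7.63, 7.44 and 7.61 in exposed livers. On day 7 every exposed liver was below every control, while on day 3 the difference was -0.03. The late change was -0.67 ± 0.25, and the controls alone were 0.40 higher on day 7 than on day 3 (adjusted p = 1). Pgd, of the pentose phosphate pathway, had a late change of -0.34 ± 0.16. Nqo1, a quinone reductase, had one of -1.0 ± 0.55.

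**Figure D2:**
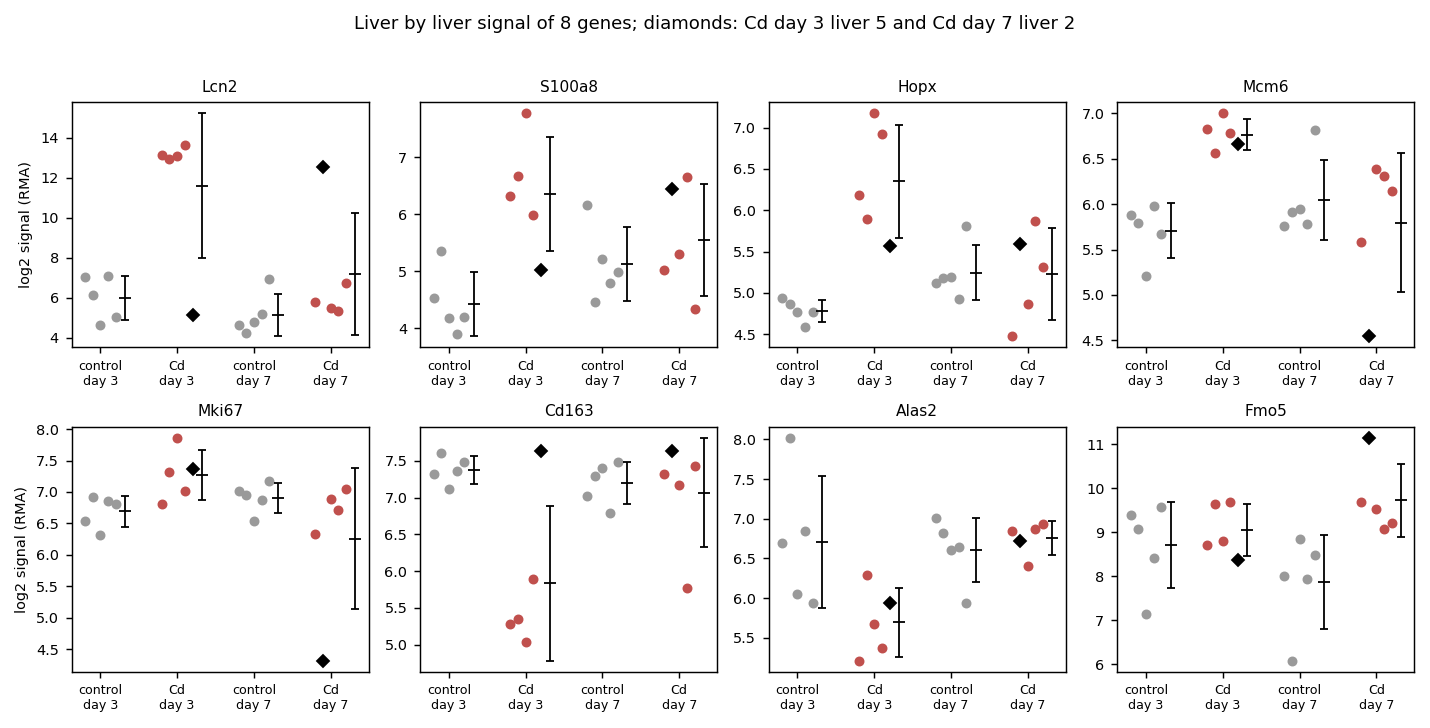
Log2 RMA signal of Lcn2, S100a8, Hopx, Mcm6, Mki67, Cd163, Alas2 and Fmo5 (y axes) in each liver of the 4 groups (x axis). Points are livers, short lines are group means, and diamonds mark day 3 exposed liver 5 and day 7 exposed liver 2. Lcn2 of these 2 livers, at 5.12 and 12.53, is nearer to the other exposed livers of the opposite day than to those of its own, while Mcm6 is above every control in all 5 exposed livers of day 3.

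S100a8 and S100a9 rose on day 3, and neither passed the adjusted p for the late change. They encode the calprotectin subunits of neutrophils and monocytes. S100a8 stood at 4.52, 5.36, 4.17, 3.90 and 4.20 in day 3 controls and at 6.32, 6.67, 7.77, 5.99 and 5.01 in day 3 exposed livers. Day 7 controls were at 6.17, 4.46, 5.21, 4.79 and 4.98 and day 7 exposed livers at 5.03, 6.44, 5.30, 6.66 and 4.33. It was above every control in 4 of 5 exposed livers on day 3 and in 2 of 5 on day 7. It rose on day 3 by 1.92 (adjusted p = 0.0307) and had a late change of -1.50 ± 0.64 (adjusted p = 0.992), or -2.05 without both livers that stand apart. S100a9 rose on day 3 by 2.17 (adjusted p = 0.0177), was 0.98 above control on day 7 (adjusted p = 0.594), and had a late change of -1.18 ± 0.65.

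Of 10 neutrophil and monocyte markers on the array, 5 passed the filter on signal, which used exposed Cd arrays too. All 5 had a negative late change. At an unadjusted p of 0.05 or less 2 were lower and 0 higher, against 3.72% and 1.24% of all genes. The median went from 1.31 on day 3 to 0.31 on day 7, for a median late change of -0.99, beside -0.04 over all genes. On day 3, 3 of the 5 rose at the adjusted p, against 1.47% of all genes. With both livers that stand apart left out, all 5 were lower in the late change at an unadjusted p of 0.05 or less, against 473 of all 9391 genes. Leaving out 1 liver at a time gave 1 to 5, with 5 without day 7 exposed liver 2 and 4 without day 3 exposed liver 5. The list mean lay between 6.05 and 6.58 in day 3 controls and between 6.74 and 8.35 in day 3 exposed livers, with no overlap. On day 7 it lay between 6.16 and 7.07 in controls and between 6.35 and 7.55 in exposed livers, with overlap. A filter on a mean that includes exposed arrays can favour markers that exposure raised. With no filter on low signal, 2 of 10 tested markers were lower in the late change, against 754 of all 31042 probe sets. In that setting 0 markers were higher, and their median late change was -0.39.

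Of other genes that leukocytes express, S100a4, Fabp4 and Itgal were among the 10 named by size for a lower late change. Ly6c, a monocyte surface antigen already counted in the neutrophil and monocyte list, rose on day 3 by 1.31 (adjusted p = 0.0135). All 5 exposed livers were above every control on that day, and the late change of Ly6c was -0.99 ± 0.37. S100a4, a calcium-binding protein of motile cells, rose by 1.63 (adjusted p = 0.0255) and had a late change of -1.35 ± 0.53. Fabp4, a fatty acid carrier of adipocytes and macrophages, is listed here among mesothelial and adipose markers. Fabp4 rose by 1.39 (adjusted p = 0.0409) and had a late change of -1.27 ± 0.49. The integrin Itgal, part of LFA-1 on leukocytes, was 1.20 above control on day 3 (adjusted p = 0.133) and had a late change of -1.32 ± 0.54. Without both livers that stand apart, the late changes of S100a4, Fabp4 and Itgal were -1.85, -1.69 and -1.83. The 9 macrophage activation markers had 0 members past the unadjusted p in either direction and a median of -0.38. Without both, 3 of the 9 were lower, against 473 of all 9391 genes. Mmp12, the macrophage elastase, had a late change of -0.88 ± 0.46. Of 5 tested T and NK cell markers, 1 was lower, against 3.72% of all genes, and of 2 tested B and plasma cell markers 0 were. No member of either list was called on day 3, with medians of 0.10 and 0.25 on that day.

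Hopx, a homeodomain protein without DNA-binding activity, had the smallest unadjusted p among the genes named by size. In day 3 controls it stood at 4.94, 4.86, 4.76, 4.58 and 4.76 and in day 3 exposed livers at 6.18, 5.90, 7.17, 6.93 and 5.57. On day 7 it stood at 5.12, 5.18, 5.19, 4.93 and 5.81 in controls and at 4.48, 5.6, 4.87, 5.87 and 5.31 in exposed livers. The groups did not overlap on day 3 and were mixed on day 7. It rose on day 3 by 1.57 (adjusted p = 0.00848), differed by -0.02 on day 7, and had a late change of -1.59 ± 0.37 (adjusted p = 0.722).

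St3gal5, the sialyltransferase that makes ganglioside GM3, had the smallest unadjusted p of all probe sets and is named for that, after its values were seen. It stood at 6.92, 7.15, 7.16, 7.09 and 6.84 in day 3 controls and at 7.55, 7.49, 7.58, 7.57 and 7.25 in day 3 exposed livers. The day 7 signals were 7.21, 7.16, 7.33, 7.24 and 7.52 in controls and 7.16, 7.24, 6.96, 7.20 and 7.31 in exposed livers. It was above every control in all 5 exposed livers of day 3 and in none of day 7. The late change was -0.58 ± 0.11 (adjusted p = 0.333). Part of it lay in the controls, which were 0.26 higher on day 7 than on day 3 (adjusted p = 0.953). Ltc4s, the leukotriene C4 synthase, had the lowest late change among named genes after Lcn2, at -1.91 ± 0.57, with the controls 0.91 higher on day 7 (adjusted p = 1). One of its day 3 controls, at 5.67, lay well under the other 4, at 7.45 to 8.43. Mbp, which encodes myelin basic protein and related transcripts of blood cells, had a late change of -1.50 ± 0.56, and its groups overlapped on both days.

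Genes of DNA synthesis had mostly negative late changes. Of 52 listed genes 47 were matched and 34 tested, and 15 of these (44.1%) had a lower late change at an unadjusted p of 0.05 or less, against 3.72% of all genes, with 0 higher, against 1.24%. All but 1 of the 34 were negative. The median went from 0.20 on day 3 to -0.14 on day 7, for a median late change of -0.33, beside -0.04 over all genes. None of the 34 had a late change called at the adjusted p. On day 3, 4 of them rose at the adjusted p, against 1.47% of all genes. Leaving out any 1 liver gave 15 to 18, and leaving out both livers that stand apart gave 13, against 473 of all 9391 genes without both. With the control livers of both metals pooled within a day the count was 7. The list mean was 6.79 to 6.94 in day 3 controls and 7.04 to 7.20 in day 3 exposed livers, which did not overlap. On day 7 it was 6.87 to 7.10 in controls and 6.34 to 7.01 in exposed livers.

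The subunits of the MCM2-7 helicase, which unwinds DNA at replication origins, are among these genes, and several separated the livers on day 3. Mcm6 stood at 5.88, 5.79, 5.21, 5.98 and 5.67 in day 3 controls and at 6.83, 6.56, 7.00, 6.78 and 6.66 in day 3 exposed livers. Day 7 controls were at 5.76, 5.92, 5.95, 5.78 and 6.81 and day 7 exposed livers at 5.58, 4.55, 6.38, 6.31 and 6.15. All 5 exposed livers, liver 5 included, were above every control on day 3 and none was on day 7. Mcm6 rose on day 3 by 1.06 (adjusted p = 0.0300) and its late change was -1.30 ± 0.35 (adjusted p = 0.992), or -1.02 without both livers that stand apart. Mcm2, Mcm3 and Mcm4 also rose on day 3, by 0.51, 0.58 and 0.80, with every exposed liver above every control, and on day 7 they differed by -0.01, 0.01 and 0.11. Their late changes were -0.52 ± 0.17, -0.58 ± 0.16 and -0.68 ± 0.24. Mcm5 was 0.36 above control on day 3 (adjusted p = 0.140) and -0.26 on day 7, for a late change of -0.62 ± 0.16 with all livers and -0.62 without both. Pclaf, which encodes a PCNA-binding factor, had a late change of -1.15 ± 0.43. For Mcm2, Mcm3 and Mcm4 the names were chosen after their values were seen.

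Genes of G2 and mitosis also had negative late changes. Of 57 listed 49 were matched and 39 tested, and 16 (41.0%) had a lower late change at an unadjusted p of 0.05 or less, against 3.72% of all genes, with 0 higher and all 39 negative. The median was 0.10 on day 3 and -0.58 on day 7, for a median late change of -0.73, beside -0.04 over all genes. On day 3 none of the 39 was called. On day 7, 27 of the 39 lay below same-day controls at an unadjusted p of 0.05 or less, against 4.9% of all genes. The count rested on few livers. It was 4 without day 7 exposed liver 2 and 30 without day 7 exposed liver 5, and it was 7 without day 3 control liver 3 or without day 3 exposed liver 5. It was 8 without day 3 exposed liver 3 and 9 without day 7 control liver 5 or day 7 exposed liver 1. With both livers that stand apart left out it was 3, against 473 of all 9391 genes, with a list median of -0.33. With the control livers of both metals the count was 0. The list mean was 6.16 to 6.80 in day 3 controls, 6.40 to 7.19 in day 3 exposed livers, 6.38 to 6.80 in day 7 controls and 4.85 to 6.75 in day 7 exposed livers, and the groups overlapped on both days.

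Mki67, whose promoter is printed above, stood at 6.54, 6.92, 6.32, 6.86 and 6.81 in day 3 controls and at 6.81, 7.32, 7.86, 7.02 and 7.37 in day 3 exposed livers. On day 7 it stood at 7.02, 6.96, 6.53, 6.87 and 7.17 in controls and at 6.33, 4.32, 6.88, 6.71 and 7.05 in exposed livers. On day 3, 4 of 5 exposed livers were above every control, while on day 7 liver 2 lay far below all others. The late change was -1.23 ± 0.46 (adjusted p = 0.992), and -0.72 (adjusted p = 0.646) without both livers that stand apart. Cdk1 stood at 7.77, 7.75, 7.18, 7.71 and 7.76 in day 7 controls and at 6.66, 4.13, 7.36, 7.06 and 7.76 in day 7 exposed livers, with a late change of -1.20 ± 0.59 that became -0.46 without both. Ccnb1 (cyclin B1) and the phosphatase gene Cdkn3 had late changes of -0.87 ± 0.54 and -1.13 ± 0.68, which became -0.16 and -0.31 without both.

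Other G2/M genes moved by less when both livers were left out. Tacc3, also printed above, had a late change of -0.70 ± 0.23 with all livers and -0.58 without both. Top2a, the mitotic topoisomerase, named after its values were seen, had one of -0.95 ± 0.36 and -0.58. The group of G1 cyclins and Myc had 1 member lower and 1 higher of 20, against 3.72% and 1.24% of all genes. Ccnd1 (cyclin D1) was 1.02 below control on day 7 (difference -1.02, adjusted p = 0.487) and 0.79 below on day 3 (difference -0.79), for a late change of -0.23 ± 0.51. Rbl1, the p107 pocket protein, had a late change of -0.56 ± 0.22, and Mxi1, a Myc antagonist, one of 0.26 ± 0.12.

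**Figure D3:**
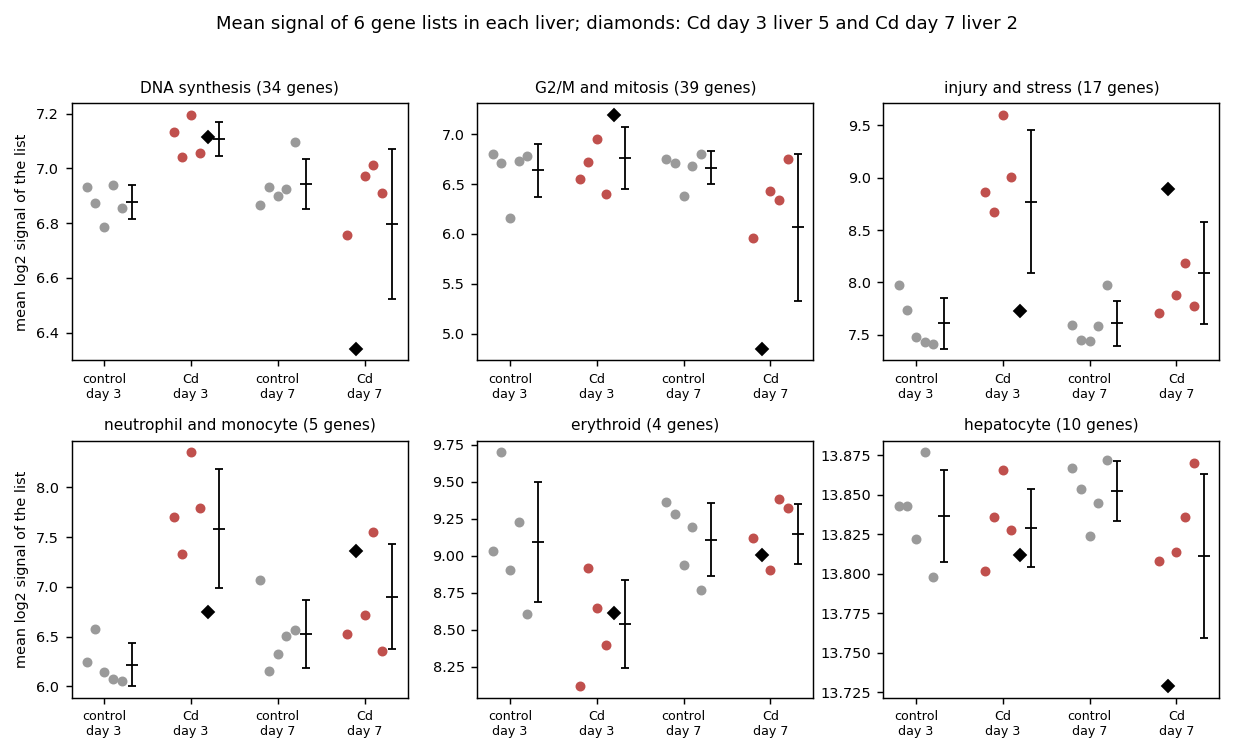
Mean log2 signal of 6 gene lists (y axes) in each liver of the 4 groups (x axis): DNA synthesis, G2/M and mitosis, injury and stress, neutrophil and monocyte, erythroid and hepatocyte. Points are livers, short lines are group means, and diamonds mark the 2 livers that stand apart. The DNA synthesis mean separates day 3 exposed livers, at 7.04 to 7.20, from day 3 controls, at 6.79 to 6.94, and the G2/M mean of day 7 exposed liver 2, at 4.85, is the lowest, with the next at 5.96.

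**Figure D4:**
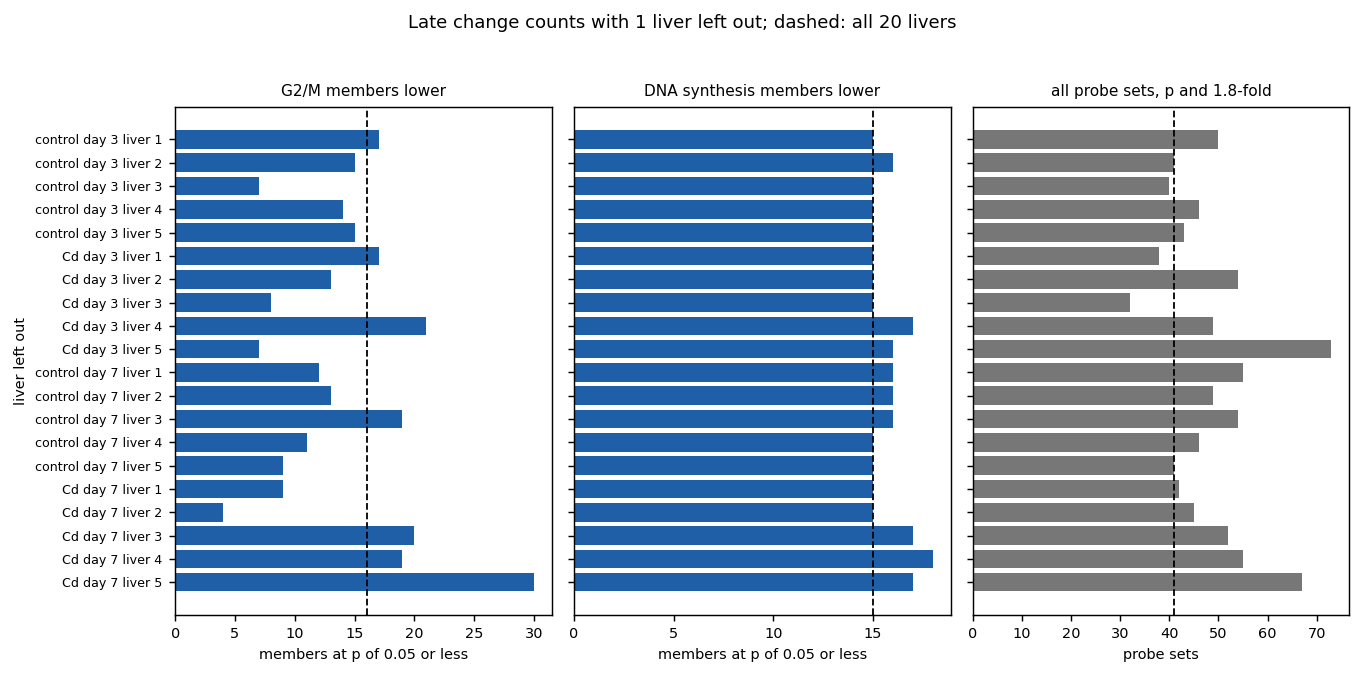
Number of G2/M genes and of DNA synthesis genes with a lower late change at an unadjusted p of 0.05 or less, and number of all probe sets past that p and 1.8-fold (x axes), when the liver on the y axis is left out. Dashed lines are the counts with all 20 livers, 16, 15 and 41. The G2/M count spans 4 to 30, the DNA synthesis count 15 to 18, and the count over all probe sets 32 to 73.

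Interferon-stimulated genes had 3 of 34 tested members lower in the late change (8.82%), against 3.72% of all genes, and 0 higher, against 1.24%. Their median went from 0.20 on day 3 to 0.07 on day 7. Mx1, the myxovirus resistance GTPase, stood at 5.84, 6.35, 6.12, 5.67 and 6.49 in day 3 controls and at 7.71, 7.24, 7.87, 8.04 and 6.84 in day 3 exposed livers. The day 7 signals were 5.84, 6.91, 6.21, 5.46 and 6.62 in controls and 6.56, 6.72, 6.59, 7.12 and 6.83 in exposed livers. The groups were apart on day 3 and overlapped on day 7. Mx1 rose on day 3 by 1.45 (adjusted p = 0.00848) and had a late change of -0.89 ± 0.35, while its paralog Mx2 had one of -0.14 ± 0.35. Oasl, of the oligoadenylate synthetase family, had a late change of -0.52 ± 0.22. Parp14, the interferon-induced gene with the printed interferon-type match, had one of -0.27 ± 0.12 and was named after its values were seen. Leaving out 1 liver at a time gave 1 to 8 lower members of the list, 1 without day 7 control liver 5 and 8 without day 7 control liver 1.

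Of antigen presentation genes, 15 of 18 in class I and 7 of 7 in class II had a negative late change. Negative signs were also the more common ones over all genes, whose median late change was -0.04. Of 18 tested MHC class I and antigen processing genes, 4 (22.2%) had a lower late change at an unadjusted p of 0.05 or less, against 3.72% of all genes, and 0 a higher one. Their median was -0.22, and 3 rose on day 3 at the adjusted p, against 1.47% of all genes. Without day 7 control liver 5, or without day 3 exposed liver 4, 1 was lower in the late change. Psmb10, a subunit of the immunoproteasome, rose on day 3 by 0.48 (adjusted p = 0.0191) and had a late change of -0.34 ± 0.15. The class I gene RT1-S3 had one of -0.43 ± 0.16. Of 7 MHC class II genes 3 rose on day 3, against 1.47% of all genes, and the group median was 0.85 on day 3 and 0.69 on day 7. No class II gene had a late change at an unadjusted p of 0.05 or less, and RT1-Bb and RT1-Da had late changes of -1.10 ± 0.82 and -0.46 ± 0.39. Near-identical genes of these families can share probes, so single members are uncertain.

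The 8 named genes with a higher late change at an unadjusted p of 0.05 or less and 1.8-fold were a macrophage receptor, red cell genes and enzymes of small-molecule metabolism. Cd163, the haemoglobin scavenger receptor of Kupffer cells, stood at 7.32, 7.61, 7.11, 7.36 and 7.49 in day 3 controls and at 5.28, 5.35, 5.03, 5.89 and 7.63 in day 3 exposed livers. Day 7 controls were at 7.02, 7.29, 7.40, 6.79 and 7.48 and day 7 exposed livers at 7.32, 7.64, 7.17, 5.77 and 7.43. On day 3, 4 of 5 exposed livers were below every control, and on day 7 1 was. The late change was 1.41 ± 0.63 (adjusted p = 0.992), from -1.54 on day 3 (adjusted p = 0.0864) to -0.13 on day 7, and it was 1.72 without both livers that stand apart. Clec4f, a lectin of Kupffer cells, stood at 9.16, 9.03, 8.96, 8.08 and 10.64 in day 3 exposed livers and at 10.12 to 10.60 in their controls, with a late change of 1.18 ± 0.58. The list of Kupffer cell markers did not share their day 3 direction. Over its 9 tested members the median difference on day 3 was 0.29, so that most lay above control, whereas the mean level was 9.02 in day 3 controls and 8.80 in day 3 exposed livers. The mean and the median thus differ in sign. Of the 9, 1 had a higher late change at an unadjusted p of 0.05 or less, against 1.24% of all genes, and 0 a lower one, with a median of 0.07.

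The erythroid markers had a median difference from controls of -0.64 on day 3 and 0.08 on day 7. Alas2, the first enzyme of haem synthesis in red cell precursors, stood at 6.70, 8.01, 6.05, 6.85 and 5.94 in day 3 controls and at 5.21, 6.29, 5.68, 5.37 and 5.93 in day 3 exposed livers. On day 7 it stood at 7.01, 6.82, 6.6, 6.64 and 5.94 in controls and at 6.85, 6.71, 6.41, 6.87 and 6.93 in exposed livers. On day 3, 4 of 5 exposed livers were below every control, and on day 7 the groups overlapped. Alas2 had a late change of 1.16 ± 0.42, and the globin genes Hba-a3 and Hbb had ones of 1.19 ± 0.49 and 0.82 ± 0.34. Of 4 tested markers 2 were higher at an unadjusted p of 0.05 or less, against 1.24% of all genes, and 1 was negative. Hba-a3 is not in that list. Near-identical globin genes can share probes, and the blood held in each liver was not measured in these files.

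Enzyme genes made up the rest. Fmo5, a flavin monooxygenase, stood at 9.39, 9.06, 7.15, 8.40 and 9.56 in day 3 controls and at 8.71, 9.63, 8.80, 9.69 and 8.36 in day 3 exposed livers. The day 7 signals were 8.0, 6.08, 8.85, 7.92 and 8.48 in controls and 9.68, 11.13, 9.52, 9.07 and 9.21 in exposed livers. On day 7 every exposed liver was above every control, by 1.85 (adjusted p = 0.263), and on day 3 the groups were mixed. The late change of 1.53 ± 0.67 (adjusted p = 0.992) included controls 0.85 lower on day 7 than on day 3 (difference -0.85), and it was 1.01 (adjusted p = 0.902) without both livers that stand apart. Acsm2, a medium-chain acyl-CoA synthetase, was also above every control in all 5 exposed livers on day 7 and had a late change of 1.07 ± 0.35, with controls lower on day 7 by a difference of -0.62 (adjusted p = 1).

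Inmt, which methylates indolamines, had the highest late change among named genes, 1.86 ± 0.57 (adjusted p = 0.992). It stood at 5.52, 4.80, 4.92, 5.46 and 7.47 in day 3 controls and at 5.24, 4.29, 4.54, 4.5 and 5.03 in day 3 exposed livers, and 1 control thus lay above all others. Day 7 controls were at 6.18, 5.24, 5.02, 5.21 and 4.57 and day 7 exposed livers at 5.55, 6.88, 6.48, 5.87 and 6.17. Cyp4a1, a fatty acid hydroxylase induced through PPAR-alpha, had a late change of 0.93 ± 0.37, and Cyp3a23-3a1, a drug-metabolizing P450, one of 0.91 ± 0.32. In Cyp3a23-3a1 4 of 5 exposed livers were below every control on day 3, and on day 7 none was.

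Few members of the lists these enzymes belong to passed the unadjusted p for the late change. Bile acid synthesis and transport genes had 2 of 20 members higher (10%), against 1.24% of all genes, the transporter Slco1a4 with 0.63 and the bile acid reductase Akr1d1 with 0.43, and 0 lower. P450 families 1 to 3 had 1 of 25 higher and 0 lower, and fatty acid oxidation genes 1 of 23 higher and 1 lower. Cholesterol synthesis genes had 1 of 20 higher, Insig1, which retains SREBP in the ER, with 0.72 ± 0.33. Urea cycle and amino acid catabolism genes had 2 of 33 higher and 1 lower, against 1.24% and 3.72% of all genes. Among them were Aass of lysine breakdown with 0.38 ± 0.14 and Bcat2 of branched-chain amino acid breakdown with -0.41 ± 0.15. The 10 hepatocyte markers had 0 members past the unadjusted p in either direction and a median of 0.00.

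**Figure D5:**
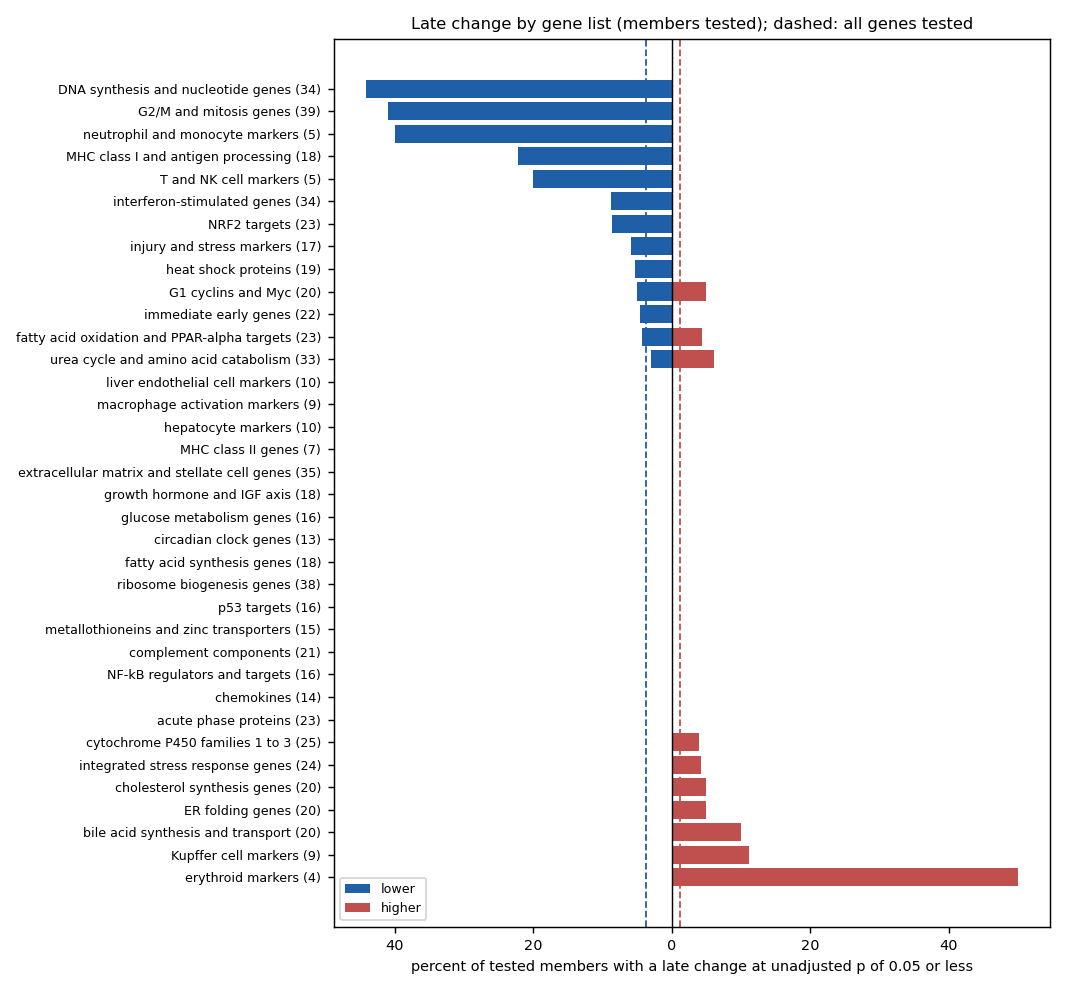
Percent of tested members with a late change at an unadjusted p of 0.05 or less (x axis), lower to the left in blue and higher to the right in red, for each gene list (y axis, number tested in brackets). Dashed lines are the shares over all 9391 genes, 3.72% lower and 1.24% higher. DNA synthesis, at 44.1%, and G2/M and mitosis, at 41.0%, lie well to the left among the lists with over 30 members, and erythroid markers, 2 of 4, lie to the right.

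Dusp6, the phosphatase that switches off ERK, was the 1 gene called on both days, and it was named after its values were seen. It stood at 9.32, 9.60, 9.10, 9.16 and 9.09 in day 3 controls and at 10.55, 10.78, 10.59, 10.58 and 10.60 in day 3 exposed livers. On day 7 it stood at 8.98, 9.10, 10.15, 8.96 and 9.49 in controls and at 10.72, 10.62, 10.35, 10.45 and 9.81 in exposed livers. All 5 exposed livers were above every control on day 3 and 4 of 5 on day 7. It rose by 1.36 on day 3 (adjusted p = 0.00142) and by 1.06 on day 7 (adjusted p = 0.0320), with a late change of -0.31 ± 0.27. Its second probe set rose by 1.02 on day 7. Without both livers that stand apart no probe set was called on day 7.

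Of the other 2 probe sets called on day 7, the transcriptional repressor Tgif1 fell by 0.63 (adjusted p = 0.0320) and had a late change of -0.46 ± 0.16. A probe set of Tor1b fell by 1.37 (adjusted p = 0.0357), but a brighter probe set of the same gene differed by -0.08, so the gene's probe sets disagree. Both genes were named after their values were seen. Heph, a copper-dependent ferroxidase, lies below the filter on signal and was fitted without it. It stood at 4.72 to 5.23 in day 3 controls and at 6.81, 6.89, 7.19, 6.79 and 5.37 in day 3 exposed livers, and at 4.54 to 5.25 in day 7 controls and 6.12, 6.93, 6.86, 6.41 and 4.83 in day 7 exposed livers. The difference was 1.61 on day 3 and 1.31 on day 7 (adjusted p = 0.378), for a late change of -0.30 ± 0.41. Only day 7 exposed liver 5 lay among the controls of its day.

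Myc rose on day 3 by 1.46 (adjusted p = 0.0193) and was 0.92 above control on day 7 (adjusted p = 0.484), with a late change of -0.54 ± 0.45. Its controls were 0.76 higher on day 7 than on day 3 (adjusted p = 1), while the exposed livers differed between days by 0.22. The matrix proteoglycan Lum was 1.96 above control on day 3 (adjusted p = 0.179) and 1.60 on day 7 (adjusted p = 0.579), and its late change was -0.36 ± 0.96. Extracellular matrix and stellate cell genes had 0 of 35 members past the unadjusted p in either direction, with medians of 0.42 on day 3 and 0.18 on day 7. Without both livers that stand apart 4 of the 35 were lower, against 473 of all 9391 genes. Col4a1, of basement membrane collagen, had a late change of -0.49 ± 0.27. Asns, the asparagine synthetase of the integrated stress response, was 0.45 above control on day 3 and 0.97 on day 7 (adjusted p = 0.552), with a late change of 0.53 ± 0.53. The chemokines Cxcl1 and Cxcl9 had late changes of -0.06 ± 0.95 and -0.33 ± 0.61, and of 14 tested chemokines 0 passed the unadjusted p in either direction.

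Chromium (Cr) livers of the same days, with their own controls, were set beside the Cd livers (Cr 20 mg/kg by the labels, 5 livers a group). The methods first name a lower Cr dose for the arrays than the labels do. They then state that the high dose was selected for Cr, and the supplement heads the Cr array values as high. The high dose was 20 mg/kg, the dose of the labels. The methods thus contradict themselves on the Cr dose. The direct test of the Cd late change minus the Cr late change called 0 probe sets in limma at the adjusted p, with 841 at an unadjusted p of 0.05 or less, and a plain linear model called 0 as well. Among G2/M genes 36 of 39 were lower in that difference at the unadjusted p, against 4.25% of all genes. Their median late change was -0.73 for Cd and 1.08 for Cr. Of the DNA synthesis genes 22 of 34 were lower, with medians of -0.33 for Cd and 0.23 for Cr. Without both Cd livers that stand apart these counts were 32 and 16, against 390 of all 9391 genes. In that setting the Cd late change itself had 3 of 39 G2/M genes lower, against 473 of all 9391 genes, with a median of -0.33. The median difference between metals was -1.26, so it also holds the higher late change of the Cr livers. For DNA synthesis genes these values were 13 of 34, -0.24 and -0.50. Mki67 had a late change of 1.28 in Cr livers and a difference between metals of -2.51 ± 0.73 (adjusted p = 0.532), and Mcm6 one of 0.53 and a difference of -1.84 ± 0.50 (adjusted p = 0.424). Whether the arrays of both metals were normalized together is not given in the sources used here, and metal and experiment cannot be told apart in this comparison.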

How the data were processed

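RNA of 59 rat livers had been hybridised to Affymetrix whole-genome rat arrays, 1 a liver. The authors deposited log2 values, made with RMA in Partek per the submitters' processing notes. Read depth does not apply to arrays, and precision depends on how many there are. Of 31099 rows, 57 control probe sets were left out, and the 15521 probe sets with the higher mean over the 29 Cd arrays (50% of 31042) were tested. A platform table gave 1 symbol to 20826 probe sets, several to 436 and none to 9780, and a gene was read from its brightest probe set with 1 symbol. All groups came from the sample labels, and 0 columns of the table were unused. Replicates are separate livers.

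limma 3.58.1 (R 4.3.3) was fitted with 6 groups to the 29 Cd arrays (23 residual degrees of freedom), with Benjamini-Hochberg adjustment over all probe sets tested. All p-values are two-sided. The contrast with Cr used all 59 arrays. Tables and figures were made in Python 3.11.15. The members, the 40 gene lists and the tests were chosen with earlier results of these data known. Genes were named by size (10 in each direction, filled from an unadjusted p of 0.05 and 1.8-fold because 0 were called, which left 8 higher and 10 lower), by the 2 smallest p of each list, or of each list's called members up to 3, and from a set list, 108 genes in all. The text gives values for 72, of which St3gal5, Dusp6, Tgif1, Tor1b, Mcm2, Mcm3, Mcm4, Parp14 and Top2a were added after their values were seen. Rrm2 had no probe set of its own. The same-numbered livers were not treated as pairs in the main fit. Promoter windows came from a RefSeq table on GRCr8. Alternatives were a replicate block, other sets of arrays, filters, quantile normalization, a plain linear model, array weights, pooled controls and leaving out livers.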

Additional observations from a re-analysis of the deposited data

Results flagged for a closer look

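In 29 of 288 groups of 5 livers looked at for the genes named with values, 1 liver lay farther from the rest than chance gives in about 1 in 20 groups. On day 7, exposed liver 2 was the highest in A2m (13.94), Lcn2 (12.53) and Orm1 (14.26) and the lowest in Mki67 (4.32) and Pclaf (5.09). On day 3, exposed liver 5 was the lowest in Heph (5.37), Lcn2 (5.12), Orm1 (12.91) and St3gal5 (7.25). On day 7, control liver 5 stood out in 7 genes: highest in Arhgap11a (7.46), Gpnmb (8.16), Mcm6 (6.81), Psmb10 (8.61) and RT1-Da (10.55), and lowest in Ltc4s (7.93) and Spink1 (5.69). Among the other day 7 controls, liver 3 was the highest in Aass (11.89) and the lowest in Cdk1 (7.18), and liver 2 the lowest in Mbp (6.26). Among day 3 controls, liver 3 was the lowest in Aass (11.5), Cdkn3 (6.92) and Tacc3 (6.02), liver 4 the lowest in Itgal (6.34) and Tgif1 (8.9), and liver 5 the highest in Inmt (7.47) and the lowest in Nupr1 (7.11). Exposed liver 2 of day 3 was the highest in Dusp6 (10.78). On day 7, exposed liver 4 was the lowest in Cd163 (5.77) and exposed liver 5 the highest in Cxcl9 (9.08).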

How the results depend on the processing

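Precision was limited by 5 livers a group and, for several results, by the 2 exposed livers that stand apart. The late change kept 0 adjusted calls under every alternative except leaving out both of these livers (2 calls), a setting chosen after seeing the data, which also gave 75 probe sets past the unadjusted p with 1.8-fold, 444 calls on day 3, 0 on day 7, 62 between the exposed groups and 3 lower G2/M genes. With the control livers of both metals there were 499 calls on day 3, 2 on day 7, 5 between control days, 0 lower G2/M genes and 7 lower DNA synthesis genes. Array weights gave 520 calls on day 3, 3 between the exposed groups and 7 lower G2/M genes. A plain linear model gave 110 on day 3 and 0 on day 7. The 20 arrays alone gave 0 on day 7, and all 59 in 1 fit gave 0 on day 7 and 7 between the exposed groups. With the replicate block the late change had 0 adjusted calls, 48 past the unadjusted p with the fold and 19 lower G2/M genes, day 7 had 2 calls and the control days 1. Deviations of same-numbered livers had a mean correlation of 0.0878 against -0.022 for others, lowest -0.146, with 12 of 30 pairs over 0.1. Of the 20 arrays, 12 were closest to their own number, more than an even spread over the 5 numbers would give. What same-numbered livers share was not tested, and the main fit does not take the numbers as pairs.

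Leaving out 1 liver at a time gave 0 adjusted late change calls throughout, 32 to 73 probe sets with the fold (73 without day 3 exposed liver 5 and 67 without day 7 exposed liver 5), 21 to 393 calls on day 3, 0 to 18 on day 7 (18 without exposed liver 5), 0 between control days, 0 to 29 between the exposed groups, 0 for Cd minus Cr, 4 to 30 lower G2/M genes and 15 to 18 lower DNA synthesis genes. The day 3 count was 57, 61 and 63 without control livers 3, 4 and 5, 64, 21 and 29 without exposed livers 1, 3 and 4, and 393 without exposed liver 5. Of 71 genes, 65 kept their direction in every such run. The others were Mt2A (-0.43 to 0.75), Cxcl1 (-0.78 to 0.56), Ccnd1 (-0.48 to 0.0285), Mx2 (-0.34 to 0.0696), Lum (-0.79 to 0.16) and A2m (-0.57 to 0.57). Of 781 gene values under the other settings 11 had the direction turned. Mt2A became -0.41 with array weights, -1.03 without both livers and -0.0653 with controls pooled over days. Pooled controls also gave Cxcl1 0.61, Myc 0.22, Mx2 0.0786 and RT1-Bb 0.10. Ccnd1 became 0.26 without both livers, Mx2 0.0307 with the controls of both metals, and A2m -0.24 with weights and -0.89 without both. For these moved values the cause was not tested.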
